A study of Mus musculus with 6 samples.

Results

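The granins are acidic proteins stored with peptide hormones in the dense-core secretory granules of endocrine cells. The genes described here are Chga, Chgb, Scg2, Scg3, Scg5 and Vgf, taken by gene symbol from the 6 mouse pituitary libraries of the study. They are 6 of 50348 gene names that the tables hold when joined. All 6 were listed in 5 libraries, and 4 were listed in the adult Ghcre library. The table of that library used here ends on chromosome 5, before Vgf, and holds no row of chromosome 9, where Scg3 lies, so both were not measured there.

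Total RNA depleted of ribosomal RNA was sequenced, so that both messenger and long non-coding RNAs were covered. In each driver line, Cre recombinase made under a hormone gene switched on a yellow fluorescent protein at the ROSA locus, and like glands were pooled, dispersed with collagenase and sorted for fluorescence. The adult Tshbcre library came from 42 pooled glands (Tshb encodes the beta subunit of thyrotropin), the adult Ghcre library from 12 (Gh, growth hormone) and the adult Lhbcre library from 7 (Lhb, the beta subunit of luteinizing hormone), all from mice of 7 weeks. A second Tshbcre library was made from 5 glands at postnatal day 7 (P7). The whole-gland libraries, labelled as all pituitary cells, came from nontransgenic mice, 1 adult gland and 8 P7 glands. Because Cre marks a cell and its descendants for good, a sorted fraction can hold cells that make the hormone now or whose ancestors once used the driver. Each group was 1 library, so nothing below has a replicate check or a p-value, and pooled animals cannot be told apart.

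Granins collect into the dense core in the mildly acidic, calcium-rich trans-Golgi network, and several of them help to sort hormones into the regulated pathway. Most carry pairs of basic residues at which prohormone convertases cut them into smaller peptides. In the pituitary they are made by the hormone cells of the anterior lobe and are released with the hormones. Chga (chromogranin A) is the precursor of pancreastatin and catestatin, Chgb (chromogranin B) is its close relative, and Scg2 (secretogranin II) is the precursor of secretoneurin. Scg3 (secretogranin III) links granin aggregates to the granule membrane. Scg5 encodes 7B2, the chaperone that the convertase PC2 needs to mature, and Vgf encodes a nerve growth factor inducible precursor of several bioactive peptides.

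Cyclic AMP signalling acts on many endocrine genes through the cAMP response element, TGACGTCA, and promoters of granins are classic examples, so the start regions are shown first. RefSeq promoter sequences (assembly GRCm38.p6) were matched by symbol for 5 of the 6 genes. The 100 bases that end just before each start site are printed 5′ to 3′ on the gene's own strand, with the matched letters in capitals: TGACGTCA in Chgb and Scg2, TGACGTAA in Chga, and TGACG in Scg3.
Chga, chr12:102554841-102554940, plus strand: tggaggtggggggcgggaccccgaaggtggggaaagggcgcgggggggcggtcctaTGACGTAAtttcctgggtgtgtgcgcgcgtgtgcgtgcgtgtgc
Chgb, chr2:132781542-132781641, plus strand: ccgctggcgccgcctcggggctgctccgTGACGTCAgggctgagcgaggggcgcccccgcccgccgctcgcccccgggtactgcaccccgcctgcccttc
Scg2, chr1:79440027-79440126, minus strand: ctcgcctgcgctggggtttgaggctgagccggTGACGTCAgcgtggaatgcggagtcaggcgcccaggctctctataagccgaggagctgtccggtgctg
Scg3, chr9:75684057-75684156, minus strand: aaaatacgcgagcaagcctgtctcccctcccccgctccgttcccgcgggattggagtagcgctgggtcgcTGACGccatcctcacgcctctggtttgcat
Scg5, chr2:113829092-113829191, minus strand: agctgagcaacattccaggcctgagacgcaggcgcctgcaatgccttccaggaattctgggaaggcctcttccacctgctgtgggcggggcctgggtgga

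The match began 72 bases before the start in Chgb, 68 bases before it in Scg2 and 44 bases before it in Chga. Both strands were searched from 250 bases before to 50 bases after each start. In those windows TGACGTCA was present in 2 of 5 granin promoters and in 1.79% of 32851 RefSeq mouse promoters of the same length. TGACGTNA, which contains the first motif as a special case, was present in 3 of 5 and in 2.93% of all. The shorter TGACG, which overlaps both, was found in 5 of 5 and in 20.8% of all. In Scg3 it began 30 bases before the start. In Scg5 it began 175 bases before the start and again 19 and 40 bases after it, all outside the printed stretch. TATAAA and GGGCGG were searched as well, and were present in 1 of 5 and 3 of 5 granin promoters and in 13.6% and 35.7% of all. These are matches of letters, and no binding was measured.

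In the deposited tables (mouse build mm39, counted from 1) Chga spans chromosome 12, 102521200 to 102531286, and Chgb spans chromosome 2, 132623562 to 132636999. Scg5 lies on the same chromosome at 113606658 to 113659436, Scg2 on chromosome 1 at 79412083 to 79417743, Scg3 on chromosome 9 at 75550648 to 75591733, and Vgf on chromosome 5 at 137054156 to 137062205. At each locus 0 other named genes overlapped the granin. Chga and Chgb have 1 annotated transcript each, Scg2 has 2, Scg3 has 4, Scg5 has 7 and Vgf has 12. Of these, 2 in Scg2, 2 in Scg3, 2 in Vgf and 1 in Scg5 were above 0 in any library. A gene's level is the sum of its annotated transcripts in FPKM (a count of fragments scaled to transcript length and to library size), divided by a factor per library. The ranges in brackets are the deposited bounds, which cover counting and the assignment of reads to transcripts within 1 library, and not differences between animals. The tables also hold transcripts that the authors' assembly built and left without a name. At Chga and Scg2 in the adult whole gland these took 113 and 135 FPKM after scaling, and granin values with them are given beside the comparisons with that gland. Levels, counts and medians are otherwise of annotated transcripts.

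The driver genes that could be measured were high in the libraries named for them. A library of sorted cells is called by those cells from here on. Tshb, for thyrotropin, was at 1075 scaled FPKM in adult Tshbcre cells and 3001 in P7 Tshbcre cells, against 33.1 and 61.0 in the whole glands of those ages. Lhb was at 2198 in Lhbcre cells and 2904 in adult Tshbcre cells, against 637 in the adult gland, and in adult Tshbcre cells 5 of 6 gonadotrope markers were 4-fold or more above that gland. That library also held Gh at 14807 and Prl, for prolactin, at 6546, so markers of other hormone cells were present in it. Prl was at 17579 in the adult gland, Ghrhr at 6.69 against 27.2 and Drd2 at 3.12 against 23.8. Every somatotrope and lactotrope marker listed for both libraries was lower in adult Tshbcre cells than in that gland. Gh was not listed for the Ghcre, Lhbcre and adult whole libraries. In Ghcre cells and the adult gland 2 somatotrope markers were listed. Pappa2 was at 32.8 against 18.7 in the gland (22.9 there with assembled transcripts). Ghsr was low in both, at 0.49 against 0.16 (1.12 against 0.72 with assembled transcripts). In Ghcre cells Fshb was listed at 0 and Tshb was at 3.87 (2.75 and 7.35 with assembled transcripts). Xist, expressed from the inactive X chromosome, was at 29.4 in Lhbcre cells and at 0.11 and 0.060 in the adult Tshbcre and adult whole libraries, and the Y-linked Ddx3y was at 0.012 against 3.20 and 2.61. Lineage and sex therefore cannot be told apart in comparisons of Lhbcre cells with the other adult libraries. Neither Xist nor Ddx3y was listed for Ghcre cells, so the sex of those glands could not be read and may differ as well. Read depth, from the coverage behind each FPKM, was lowest in the adult gland, and in the others 1.15 to 2.73 times as high.

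**Figure D1:**
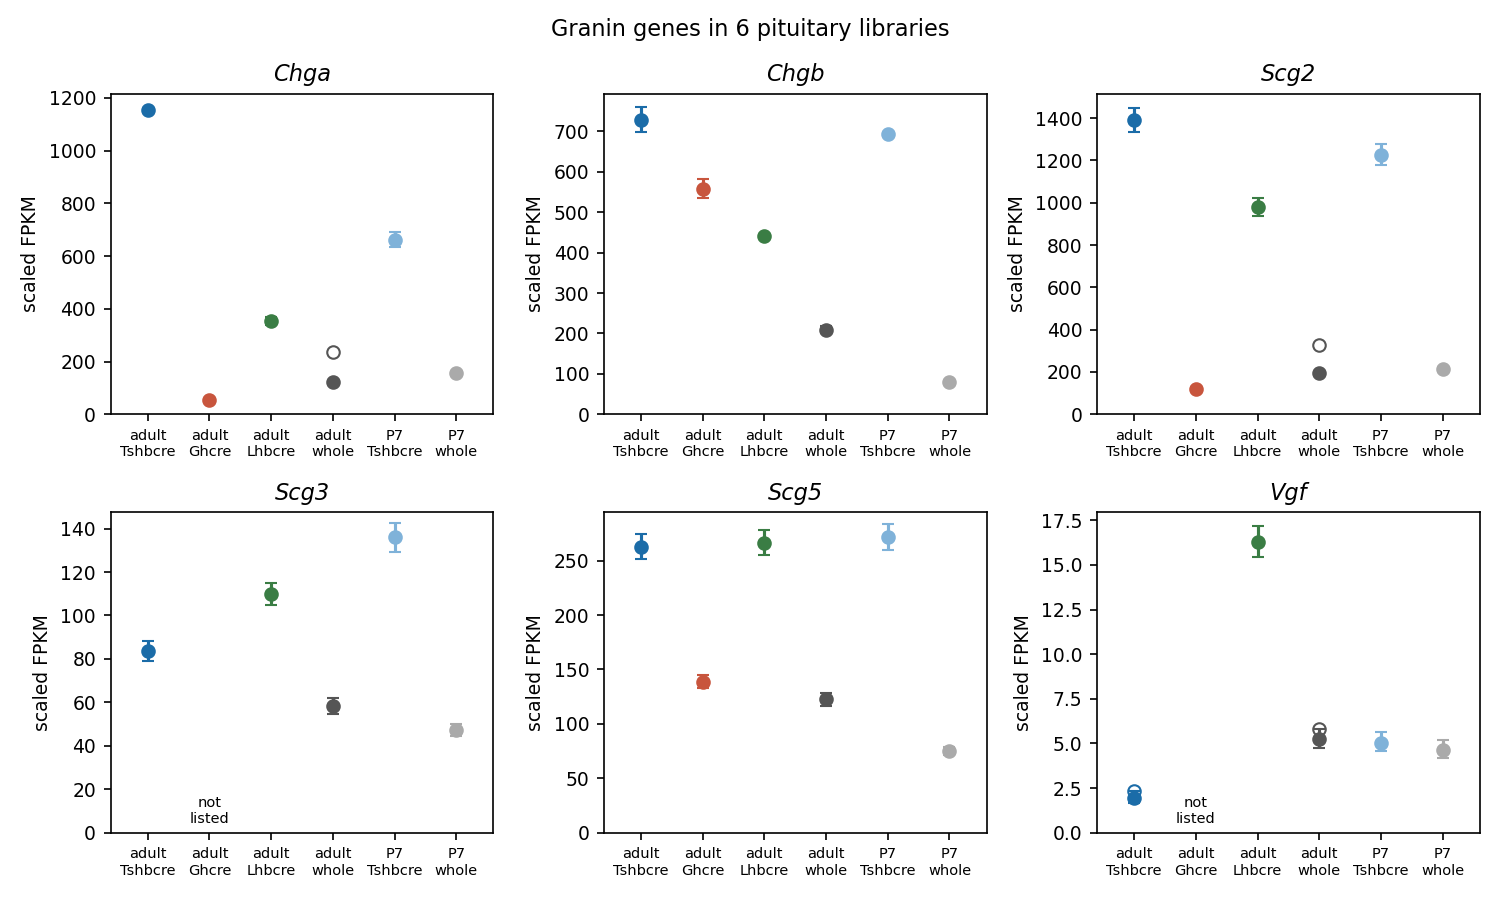
Scaled FPKM (vertical axes, linear, from 0) of each granin in the 6 libraries (horizontal axes); filled points are annotated transcripts with the deposited bounds, and open points add the unnamed assembled transcripts. Chga, Chgb and Scg2 reach their highest points in adult Tshbcre cells, Vgf its highest in Lhbcre cells, and Scg3 and Vgf are not listed for Ghcre cells.

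Chga spanned a wide range. It stood at 1155 scaled FPKM (1148 to 1162) in adult Tshbcre cells, 663 (635 to 691) in P7 Tshbcre cells and 353 (338 to 367) in Lhbcre cells. The P7 whole glands had 155 (149 to 162), the adult whole gland 122 (117 to 128), and Ghcre cells 54.1 (53.0 to 55.2). No neighbours in this order shared a deposited bound. With the assembled transcript added, the adult gland came to 235 and moved above the P7 glands. Among 14180 protein-coding genes listed in all 6 tables, Chga ranked 4 in adult Tshbcre cells and 120 in Ghcre cells.

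Chgb was abundant in all 4 sorted libraries. It was at 729 (699 to 760) in adult Tshbcre cells, 694 (690 to 699) in P7 Tshbcre cells, 558 (535 to 582) in Ghcre cells and 441 (438 to 444) in Lhbcre cells. The adult gland had 209 (200.4 to 218) and the P7 glands 79.9 (78.6 to 81.2). The bounds of the Tshbcre libraries touched, and those of the other neighbours did not. In Ghcre cells Chgb ranked 3 among the protein-coding genes listed in all tables, above its rank in any other library (6 to 69).

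Scg2 followed Chga in its low level in Ghcre cells and exceeded it in all 6 libraries. Adult Tshbcre cells had 1391 (1333 to 1450), P7 Tshbcre cells 1228 (1176 to 1279) and Lhbcre cells 980.1 (939 to 1021). The P7 whole glands had 214 (205 to 224), the adult gland 193 (185 to 202), or 328 with the assembled transcript, and Ghcre cells 122 (116 to 127). Scg2 ranked 3 or 4 in the 3 Tshbcre and Lhbcre libraries, 10 and 14 in the P7 and adult glands, and 30 in Ghcre cells.

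Scg3 and Scg5 were flatter. Scg3 was at 136 (129 to 143) in P7 Tshbcre cells, 110.0 (105 to 115) in Lhbcre cells, 83.6 (79.1 to 88.1) in adult Tshbcre cells, 58.4 (54.9 to 61.9) in the adult gland and 47.2 (44.6 to 49.9) in the P7 glands. Scg5 was at 272 (259.8 to 284) in P7 Tshbcre cells, 267 (255 to 278) in Lhbcre cells and 263 (251 to 274) in adult Tshbcre cells, which did not differ beyond their bounds. Lower values of Scg5 were seen in Ghcre cells, at 139 (133 to 145), in the adult gland, at 123 (117 to 129), and in the P7 glands, at 74.7 (71.1 to 78.3). Over the 5 libraries with all granins, the highest level of Scg3 was 2.88-fold the lowest and that of Scg5 3.64-fold. The same ratio was 9.44 for Chga (7.43 with the assembled transcript), 9.13 for Chgb, 8.42 for Vgf (7.04) and 7.19 for Scg2 (6.50).

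Vgf was the rarest granin and had an order of its own. It was at 16.3 scaled FPKM (15.4 to 17.2) in Lhbcre cells, 5.23 (4.76 to 5.83) in the adult gland, 5.04 (4.60 to 5.62) in P7 Tshbcre cells, 4.65 (4.20 to 5.19) in the P7 glands and 1.93 (1.68 to 2.32) in adult Tshbcre cells. Assembled transcripts brought the adult gland to 5.81 and adult Tshbcre cells to 2.31. The 3 middle libraries overlapped in their bounds. The library highest in Chga, Chgb and Scg2 was thus the lowest in Vgf.

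The balance between granins differed most in Ghcre cells. There Chgb made up 64.0% of the summed FPKM of the 4 granins listed in every table, Scg5 15.9%, Scg2 13.9% and Chga 6.20%. In adult Tshbcre cells Scg2 made up 39.3%, Chga 32.6%, Chgb 20.6% and Scg5 7.43%. In Lhbcre cells Scg2 reached 48.0%, with Chgb at 21.6%, Chga at 17.3% and Scg5 at 13.1%. The ratio of Chgb to Chga, which no scaling between libraries can alter, was 10.3 in Ghcre cells, 0.631 in adult Tshbcre cells and 1.25 in Lhbcre cells. It was 1.05 in P7 Tshbcre cells, 0.514 in the P7 glands, and 1.71 in the adult gland, or 0.891 with assembled transcripts. The summed level of the 4 genes was 3538 scaled FPKM in adult Tshbcre cells, 2857 in P7 Tshbcre cells, 2040.4 in Lhbcre cells and 873 in Ghcre cells, against 648 in the adult gland (896 with assembled transcripts) and 524 in the P7 glands.

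The first comparison asked which granins stood higher in the adult thyrotropin lineage than in the whole gland. Chga was 9.37-fold higher in adult Tshbcre cells (log2 difference 3.23), or 4.90-fold higher with the assembled transcripts added. Scg2 was 7.16-fold higher (2.84), or 4.23-fold with assembled transcripts. Here and below, folds are ratios of scaled FPKM + 1, and 2 libraries are called apart at 4-fold or more where the higher is at 1 or more. By that rule 2 of 6 granins were higher and 0 lower, while 3.22% of 15797 genes were higher and 7.06% were apart in either direction (1.44% of genes above 0 in both libraries). With assembled transcripts the count of granins was the same, beside 4.98% of genes. Chgb was 3.47-fold higher, Scg5 2.13-fold and Scg3 1.42-fold, and Vgf was 2.12-fold lower. The median log2 difference was 1.44 over the granins and -0.02 over all genes compared. Because both samples are bulk RNA, fewer cells of a type and less RNA per cell cannot be told apart.

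Markers of cells that were not sorted moved in the other direction. In adult Tshbcre cells 4 of 5 endothelial markers were 4-fold or more below the adult gland (summed level 14.5 against 108 scaled FPKM), as were 4 of 5 mesenchymal markers (9.95 against 37.5) and 4 of 5 erythroid markers (129.6 against 1064, with Alas2 at 0 in the sorted library). Counts of markers and other listed genes higher or lower, here and below, are by the 4-fold rule. By it 0 of 5 immune markers were lower, though their summed level was (33.2 against 54.7). Of 4 corticotrope markers 2 were lower (262 against 1569, nearly all of it Pomc). All 5 thyrotrope markers and 5 of 6 gonadotrope markers were higher, with Cga in both of these lists. With assembled transcripts 3 of 5 endothelial and 5 of 5 erythroid markers were lower. The part of these differences in the granin values was not tested.

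In the growth hormone lineage Chgb was the granin furthest above the whole gland, and Chga the furthest below it. Chgb was 2.66-fold higher in Ghcre cells (log2 difference 1.41), and Scg5 was 1.13-fold higher (0.18). Chga was 2.24-fold lower (-1.16), or 4.28-fold lower with assembled transcripts, and Scg2 was 1.59-fold lower (-0.67), or 2.69-fold lower. Of 4 granins measured, 0 were apart, beside 9.8% of 11286 genes in either direction (2.79% of those above 0 in both). With assembled transcripts Chga was apart, beside 7.59% of genes. The median over the granins was -0.24 (-0.62 with assembled transcripts) and that over all genes 0.00. These directions depend on the scaling of a table that holds only part of the genome. When libraries were given an equal sum of FPKM, which moved the median of all genes to 1.09, Chga was at 0.24, Scg2 at 0.74, Scg5 at 1.58 and Chgb at 2.82, so that Chgb was then the 1 granin apart, beside 15.2% of genes. Among all genes apart, 45.3% were higher, and 79.2% with equal sums. With FPKM as deposited, which moved that median to -0.46, Scg5 was at -0.36. The order of the granins, with Chgb highest and Chga lowest, was the same under each scaling. A factor per library shifts all 4 nearly alike, so scaling could not turn this order.

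Beside these values, 3 of 3 listed gonadotrope markers and 2 of 4 thyrotrope markers were 4-fold or more lower in Ghcre cells (summed levels 18.8 against 989.9 and 26.8 against 842 scaled FPKM). All 4 melanotrope markers were lower (31.2 against 1594), with 3 of 4 corticotrope markers (28.1 against 1569, Crhr1 at 0). These lists share genes that make up most of their sums. Pomc, in both the melanotrope and corticotrope lists, was at 27.9 against 1555. Cga, in both the gonadotrope and thyrotrope lists, was at 18.7 against 805 (1289 in the gland with assembled transcripts). The 2 listed endothelial markers (1.25 against 21.6), 4 of 5 mesenchymal markers (3.03 against 37.5, Col3a1 at 0) and 3 of 4 immune markers (3.05 against 50.9) were lower as well. With assembled transcripts all 5 mesenchymal markers were. Their part in the granin values, like that of sex, which could not be read in Ghcre cells, was not tested.

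All 6 granins stood higher in Lhbcre cells than in the adult whole gland. Scg2 was 5.04-fold higher (log2 difference 2.33), Chga 2.87-fold, Vgf 2.78-fold, Scg5 2.16-fold, Chgb 2.10-fold and Scg3 1.87-fold. By the 4-fold rule 1 of 6 was apart, beside 3.85% of 16452 genes that were higher and 9.31% in either direction (2.43% of those above 0 in both). With assembled transcripts Scg2 was 2.98-fold and Chga 1.50-fold higher, and 0 of 6 were apart, beside 6.77% of genes. The median over the granins was 1.29 (1.09 with assembled transcripts), against 0.00 over all genes. Among all genes apart 41.3% were higher, and 52.7% with an equal sum of FPKM, which moved the median of all genes to 0.37. In the same comparison 3 of 6 gonadotrope markers were higher by the 4-fold rule. Lhb (2198 against 637 scaled FPKM), Tgfbr3l (325 against 90.5) and Fshb (216 against 180) were higher by less. By that rule 4 of 5 mesenchymal and 5 of 5 erythroid markers were lower (3.32 against 37.5 and 102 against 1064, with Lum and Alas2 at 0). Of 5 endothelial markers 0 were apart (28.9 against 108). Of 6 stem cell markers 3 were lower (7.18 against 105) and of 5 immune markers 2 (7.94 against 54.7). With assembled transcripts 2 of 6 gonadotrope markers were higher and 5 of 5 mesenchymal markers lower. Their part, like that of sex, was not tested.

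**Figure D2:**
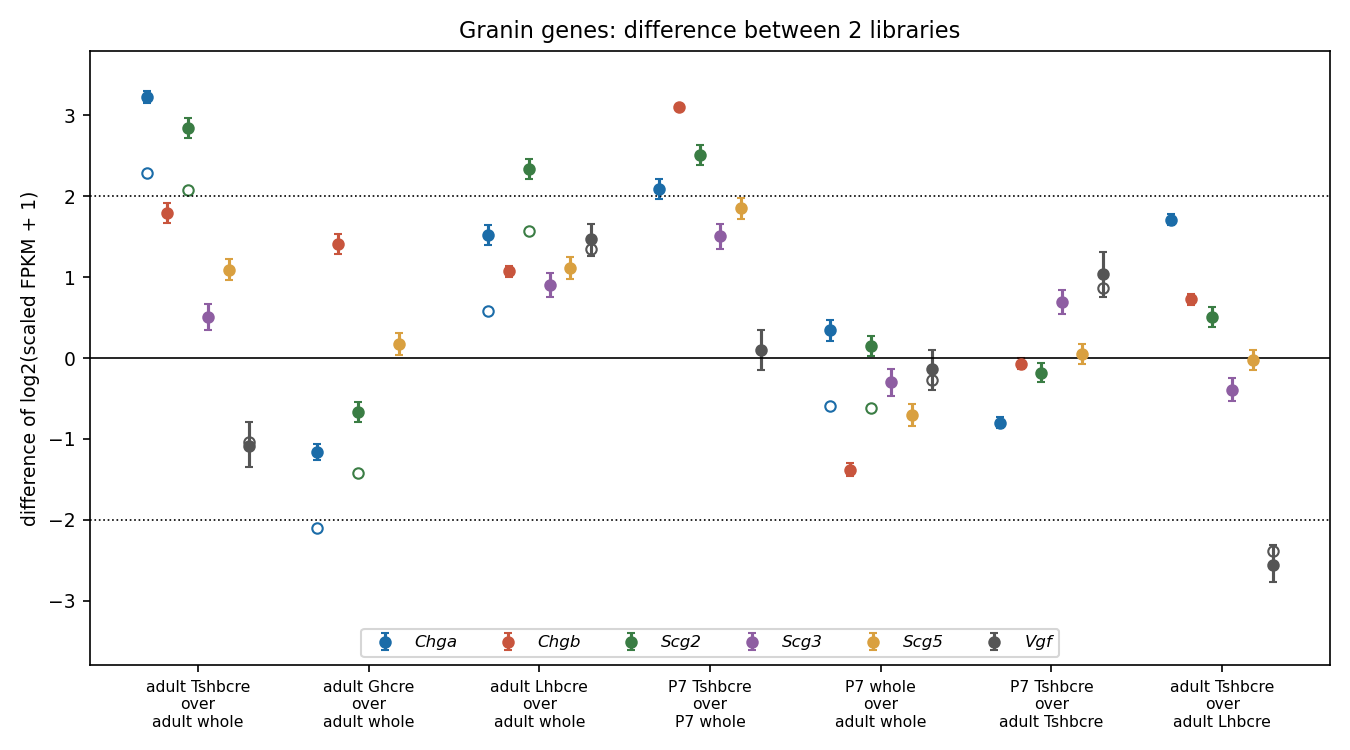
Difference of log2(scaled FPKM + 1) of each granin (vertical axis) in the 7 comparisons; bars combine the deposited bounds of both libraries, open points include assembled transcripts, and dotted lines mark 4-fold. Chga, Chgb and Scg2 lie above the upper line in P7 Tshbcre cells, and Vgf lies below the lower line between the adult Tshbcre and Lhbcre libraries.

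At P7 the thyrotropin lineage was compared with whole glands of its own age, where no unnamed transcript of 200 nt or more was assigned to a granin. Xist was at 62.6 in P7 Tshbcre cells and 17.0 in the P7 glands, and Ddx3y at 2.09 and 2.12. Lineage and the sex of the pooled glands therefore cannot be told apart. Chgb was 8.60-fold higher in P7 Tshbcre cells (log2 difference 3.10), Scg2 5.71-fold (2.51) and Chga 4.24-fold (2.09). Scg5 was 3.60-fold higher and Scg3 2.84-fold, while Vgf differed 1.07-fold, with bounds of -0.14 to 0.35 on the log2 scale and a value of -0.36 with FPKM as deposited. By the rule 3 of 6 were higher and 0 lower, beside 3.26% of 16370 genes higher and 9.38% in either direction (3.16% of those above 0 in both). The median was 1.97 over the granins and -0.01 over all genes. With FPKM as deposited, which moved the median of all genes to -0.47, Chga was at 1.55 and Scg2 at 1.97, and only Chgb was apart, beside 11.5% of genes. With equal sums, which moved it to 0.27, Scg5 was apart as well, 4 of 6 granins, beside 8.67% of genes. Among all genes apart, 34.8% were higher, and 24.6% with FPKM as deposited. All 5 endothelial markers (3.52 against 78.2 scaled FPKM, Kdr at 0) and all 5 mesenchymal markers (4.03 against 181) were lower in the sorted library. So were 4 of 5 erythroid markers (202 against 1938), 3 of 5 immune markers (1.94 against 25.6) and 2 of 4 corticotrope markers (83.8 against 1442, nearly all of it Pomc). Their part in the granin values was not tested.

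Age was compared in whole glands and in Tshbcre cells. In the glands Chgb was 2.60-fold lower at P7 than in the adult (79.9 against 209 scaled FPKM, log2 difference -1.38) and Scg5 was 1.63-fold lower (-0.71). Scg3 was at -0.30, which became 0.06 with FPKM as deposited, and Vgf at -0.14, which became 0.17. The direction for Chga (0.34) and Scg2 (0.15) turned with the assembled transcripts, to -0.59 and -0.61. No granin was apart (0 of 6), beside 6.59% of 15690 genes (1.14% of those above 0 in both). The median over the granins was -0.22 (-0.60 with assembled transcripts) and that over all genes 0.02. Of 5 mesenchymal markers, 3 were 4-fold or more higher at P7 (summed level 181 against 37.5 scaled FPKM; 2 of 5 with assembled transcripts), and Prl was at 82.5 against 17579. Their part was not tested. Xist was at 17.0 in the P7 glands and 0.060 in the adult gland, so age and sex cannot be told apart here either.

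In Tshbcre cells Chgb, Scg2 and Scg5 stood at much the same level at both ages. Chgb was at -0.07, Scg2 at -0.18 and Scg5 at 0.05 (log2, P7 minus adult), and Chgb and Scg2 were at 0.35 and 0.24 with an equal sum of FPKM, which moved the median of all genes to 0.36. Chga was 1.74-fold lower at P7 (663 against 1155 scaled FPKM), Scg3 was 1.62-fold higher (136 against 83.6) and Vgf 2.06-fold higher (5.04 against 1.93), or 1.82-fold with assembled transcripts. No granin was apart (0 of 6), beside 8.21% of 16029 genes (1.31% of those above 0 in both). The median was -0.01 over the granins and 0.02 over all genes. In the P7 library 3 of 5 immune markers were lower (1.94 against 33.2 scaled FPKM) as were 2 of 6 stem cell markers (3.79 against 53.1). Prl was at 21.7 against 6546 and Gh at 3870 against 14807. Of 6 gonadotrope markers 1 was lower, Nr5a1, listed at 0 against 26.0 (11.0 against 55.7 with assembled transcripts), and the list median was -1.34. Of 5 thyrotrope markers 0 were apart (median 0.55, or 1.07 with assembled transcripts), with Tshb at 3001 against 1075 and Gata2 at 19.6 against 44.9. Their part was not tested. The P7 library held Xist at 62.6 together with Ddx3y at 2.09, so age and the sex of the pooled glands cannot be told apart.

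Between the adult thyrotropin and luteinizing hormone lineages the granins split. Chga was 3.27-fold higher in the Tshbcre library, Chgb 1.65-fold and Scg2 1.42-fold. Scg5 was level (-0.02 on the log2 scale, bounds -0.15 to 0.10, and 0.03 with FPKM as deposited) and Scg3 was 1.31-fold lower. Vgf was 5.89-fold lower (1.93 against 16.3 scaled FPKM), or 5.21-fold with assembled transcripts. It was the only granin apart, 1 of 6 lower, beside 4.33% of 16310 genes lower and 9.3% in either direction (2.02% of those above 0 in both). The median was 0.24 over the granins and -0.02 over all genes, which an equal sum of FPKM moved to -0.15 and -0.34. In adult Tshbcre cells 3 of 6 stem cell markers (53.1 against 7.18 scaled FPKM) and 2 of 5 immune markers (33.2 against 7.94) were higher, with 3 of 5 thyrotrope and 1 of 6 gonadotrope markers. Their part in the granin values was not tested.

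At 2-fold in place of 4-fold, 5 of 6 granins were apart in adult Tshbcre cells against the gland (4 higher, Vgf lower), beside 20.6% of genes, and 5 of 6 in Lhbcre cells (all but Scg3, higher), beside 28.9%. In Ghcre cells 2 of 4 were apart (Chgb higher, Chga lower), beside 28.2%. In P7 Tshbcre cells 5 of 6 were higher (all but Vgf), beside 27.8%. Between ages Chgb was the 1 apart in glands, beside 19.4%, and Vgf the 1 apart in Tshbcre cells, beside 24.4%. Adult Tshbcre and Lhbcre cells differed in Chga (higher) and Vgf (lower), 2 of 6, beside 27.4%.

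Genes around granin processing were taken as a list of 8, of which Pcsk1n and Gpr158 do not encode processing enzymes. In the adult Tshbcre and Lhbcre libraries 0 of 8 were apart from the adult gland, and in Ghcre cells 1 of 6 listed was lower, beside the 7.06%, 9.31% and 9.8% of all genes apart in these comparisons. Pcsk1, the convertase PC1/3 that starts prohormone cleavage, was at 48.7 scaled FPKM in adult Tshbcre cells, 48.9 in P7 Tshbcre cells, 40.3 in Lhbcre cells and 8.43 in Ghcre cells (17.9 there with assembled transcripts). It was at 16.5 in the adult gland and 6.38 in the P7 glands. Against the P7 glands it was 6.76-fold higher in P7 Tshbcre cells. Qpct, which forms pyroglutamate at peptide ends, was also apart there, at 13.8 against 1.17, but not with assembled transcripts (4.36 in the glands), so that 2 of 8 or 1 of 8 genes were higher, beside 3.26% of all genes.

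The other processing genes had other orders. Pcsk2, the convertase PC2 that 7B2 serves, was at 27.7 scaled FPKM in Lhbcre cells, 15.5 in adult Tshbcre cells, 7.66 in P7 Tshbcre cells and 2.96 in Ghcre cells. The adult gland had 17.0 (30.9 with assembled transcripts) and the P7 glands 12.3 (25.1), and Ghcre cells were 4-fold or more below the adult gland on either count. Cpe, the carboxypeptidase that trims basic residues, ranged from 72.1 in the P7 glands to 211 in Lhbcre cells. Pcsk1n, a granin-like inhibitor of PC1/3, ranged from 56.4 in the P7 glands to 173 in adult Tshbcre cells. Neither was listed for Ghcre cells. Pam, which amidates peptides, ranged from 16.6 to 56.1 over annotated transcripts and from 19.4 to 105 with assembled ones. Between the ages, and between the Tshbcre and Lhbcre libraries, 0 of 8 processing genes were apart, and the median log2 differences were -0.91 in the glands, -0.18 in Tshbcre cells and -0.09 between lineages. With assembled transcripts Pam was apart in the glands, at 19.4 at P7 against 92.6 in the adult, and the medians between ages were -0.68 in glands and -0.32 in Tshbcre cells.

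**Figure D3:**
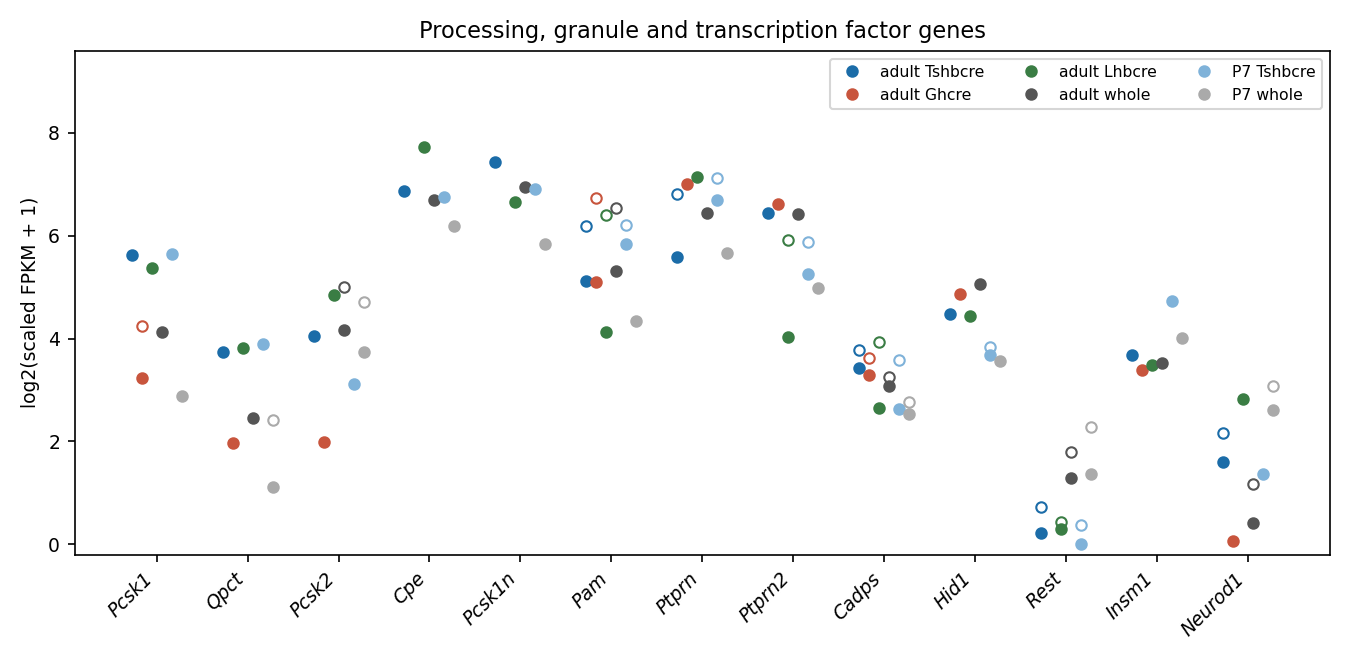
Levels (vertical axis, log2 of scaled FPKM + 1) of 13 processing, granule and transcription factor genes in the 6 libraries; open points include assembled transcripts, and genes not listed for a library have no point. Pcsk1 and Qpct are highest in the Tshbcre and Lhbcre libraries. The filled points of Rest are near 0 in those libraries, and it has no point for Ghcre cells.

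Genes of granule formation and exocytosis were compared as a list of 38. The counts apart were 0 of 34 higher and 1 lower in adult Tshbcre cells (median log2 difference 0.21), 0 of 21 in Ghcre cells (-0.14), 1 of 36 lower in Lhbcre cells (0.06) and 0 of 34 in P7 Tshbcre cells (0.19). The shares of all genes apart in these comparisons were 7.06%, 9.8%, 9.31% and 9.38%. With assembled transcripts 1 was lower in Ghcre cells, Baiap3, at 6.55 against 31.0 scaled FPKM, and the median in P7 Tshbcre cells was 0.79. The gene lower in adult Tshbcre cells was Doc2b, listed at 0 against 4.70 scaled FPKM, and it was named after its values were seen. In Lhbcre cells it was Ptprn2, encoding phogrin of the granule membrane, at 15.3 against 84.5. With assembled transcripts Ptprn2 came to 59.5 there and was not apart. Between ages 0 of 34 were apart in glands (-0.19) and 0 of 33 in Tshbcre cells (-0.19), with medians of -0.38 and 0.11 when assembled transcripts were added, so that the direction turned in Tshbcre cells. Against Lhbcre cells, 2 of 36 were higher in adult Tshbcre cells (0.04), Ptprn2 and Rph3al, and 0 with assembled transcripts. Rph3al, a Rab effector, was at 37.0 against 7.32, or 36.9 with assembled transcripts.

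The genes of this list named whatever their values were Ptprn, Ptprn2, Cadps and Hid1. Ptprn, the related membrane protein IA-2, ranged from 47.0 scaled FPKM in adult Tshbcre cells (111 with assembled transcripts) to 139.6 in Lhbcre cells. Cadps, the priming factor CAPS, ranged from 4.79 in the P7 glands to 9.80 in adult Tshbcre cells, and with assembled transcripts up to 14.2 in Lhbcre cells. Hid1, which acts in granule formation at the trans-Golgi, ranged from 10.8 in the P7 glands to 32.6 in the adult gland.

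Among 10 transcription factors the differences were scattered. Rest, the repressor of neuronal and endocrine genes, was at 0.16 scaled FPKM in adult Tshbcre cells, 0.22 in Lhbcre cells and listed at 0 in P7 Tshbcre cells, against 1.44 in the adult gland and 1.57 in the P7 glands. With assembled transcripts these were 0.65, 0.34, 0.29, 2.45 and 3.86. Insm1, a zinc finger factor of endocrine cells, ranged from 9.54 in Ghcre cells to 25.7 in P7 Tshbcre cells. Neurod1, a factor of endocrine and neural differentiation, was at 6.05 in Lhbcre cells, 2.03 in adult Tshbcre cells, 1.58 in P7 Tshbcre cells and 0.045 in Ghcre cells. It was at 0.33 in the adult gland (1.24 with assembled transcripts) and 5.11 in the P7 glands (7.42). Neurod1 was the 1 of 9 factors apart, higher in Lhbcre cells (0 with assembled transcripts) and in the P7 glands against the adult gland (0 with assembled transcripts), beside 9.31% and 6.59% of all genes. Crem, named after its values were seen, was listed at 0 in P7 Tshbcre cells and was the 1 of 9 apart from the P7 glands and the 1 of 8 apart from adult Tshbcre cells, but it was at 5.03 there with assembled transcripts. The shares of all genes apart in these comparisons were 9.38% and 8.21%. In the other comparisons, adult Tshbcre and Ghcre cells against the gland and adult Tshbcre against Lhbcre cells, 0 were apart.

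Patterns were compared over the 5 libraries that list all granins, as the root mean square difference of centred log2 levels, which is a description of 5 points. Among the granins, Scg3 and Scg5 were nearest to each other (0.33), followed by Chga and Scg2 (0.42), and Chga and Vgf were furthest apart (1.69). Of 3526 candidate protein-coding genes, those nearest to Chga were Shisa9 (0.35), Syngr1 (0.41) and Scg2 (0.42), and those nearest to Scg2 were Cga (0.41), Chga (0.42) and Slc39a11 (0.50). Chgb was nearest to Pcsk1 (0.18), Qpct (0.28) and Serpine2 (0.45). Scg3 was nearest to Aga (0.11), Tmed3 (0.13) and Pld3 (0.15), and Scg5 to Kcnd2 and Chpf (0.16 each). Vgf was nearest to Polr2e (0.11), Sf3b2 (0.24) and Gtf2f1 (0.27). In Ghcre cells, which these distances did not use, Chgb was at 558 scaled FPKM while Pcsk1 was at 8.43, Qpct at 2.89 and Serpine2 at 3.87, so the likeness of Chgb to these genes did not extend to it. Cga was likewise low there, at 18.7 against 6546 in adult Tshbcre cells, as were Chga and Scg2.

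Scg2 and Scg3 each divided their level between a pair of transcripts. For Scg2 these are 2724 and 2604 nt long. The longer held 39.0% of the annotated level in adult Tshbcre cells, 45.4% in P7 Tshbcre cells, 48.9% in Ghcre cells, 54.7% in Lhbcre cells and 48.9% in the P7 glands. In the adult gland it was listed at 0, where an assembled transcript of 2687 nt took 135 scaled FPKM. For Scg3, whose transcripts are 2207 and 2192 nt long, the longer held 38.6% in adult Tshbcre cells, 55.1% in Lhbcre cells and 26.4% in P7 Tshbcre cells, 35.0% in the adult gland and 32.0% in the P7 glands. The transcripts differ by 120 and 15 nt, which limits how well reads can be assigned between them.

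**Figure D4:**
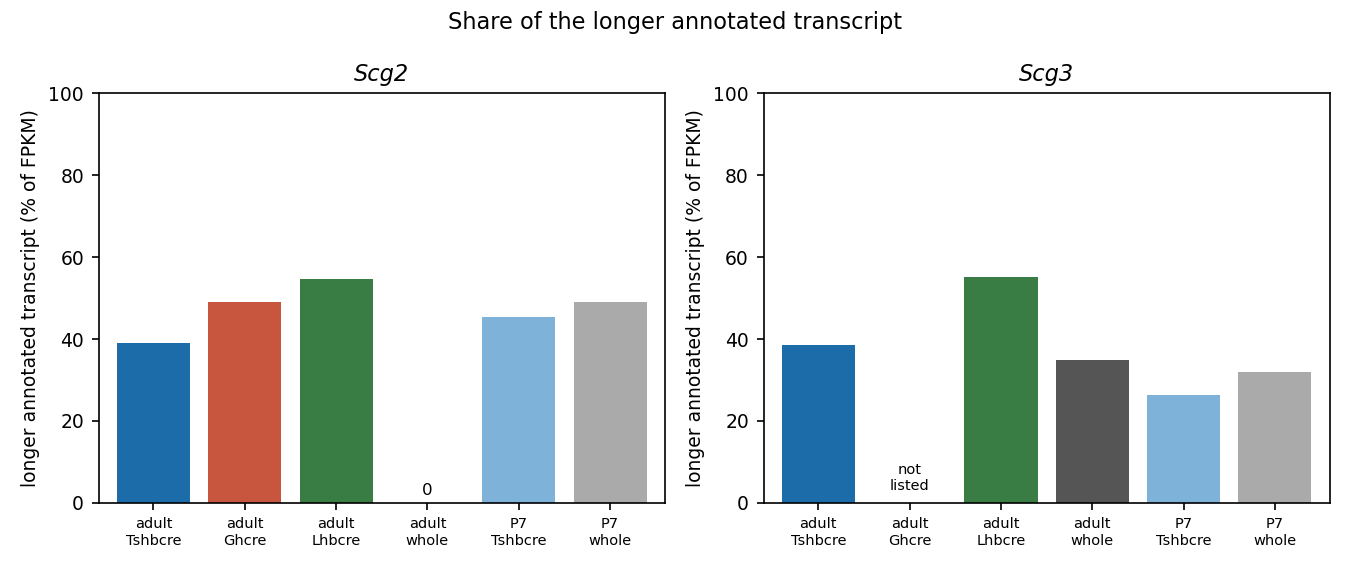
Share of the longer of the expressed annotated transcripts (vertical axis, percent of the annotated FPKM) of Scg2 and Scg3 in each library. The Lhbcre bars are the highest for both genes, at 54.7% and 55.1%, and the Scg2 bar of the adult gland is at 0.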

How the data were processed

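Transcript levels were measured by RNA sequencing of 6 mouse pituitary libraries, 1 per group. Per the submitters' processing notes, Bowtie2, Cufflinks and FastQC were used with build mm39; no source used here gives their versions. The deposited tables give, for each transcript, FPKM with bounds and a read coverage, which the authors' Cufflinks run produced. From the deposited coverage signal only relative depth was computed. The members and gene lists were chosen with earlier results of these data known.

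FPKM was summed over a gene's annotated transcripts and divided by a factor per library (median of ratios over 5808 genes at 1 FPKM or more in all 6). Factors ranged from 0.758 to 1.42. Differences are on log2(scaled FPKM + 1), which understates low genes. Libraries were called apart at 4-fold or more where the higher reached 1. No test was possible. The named genes were all members, 12 list genes whatever their values, other list genes apart and above 0 in both libraries, and the 3 protein-coding genes nearest each member, of which 1 is not reported here. Doc2b, Crem and Baiap3 fall outside this rule and were named after their values were seen. Alternatives were other scalings (deposited FPKM, equal sums, factors without the Ghcre library), a pseudocount of 0.1, a minimum of 10, no minimum, genes above 0 in both, unnamed assembled transcripts of 200 nt or more added, curated or status OK transcripts only, and 2-fold. Markers of further cell types gave the values below. From the adult gland to the P7 glands, summed stem cell markers went from 105 to 29.3 scaled FPKM and posterior lobe markers from 26.8 to 37.2. The stem cell markers did not move together. Cyp2f2 went from 71.0 to 1.74, while Sox2 went from 6.95 to 14.1 and Sox9 from 3.26 to 4.60. The median log2 difference of that list was -0.29, or 0.40 with assembled transcripts. In the adult Tshbcre library the stem cell sum was 53.1, the posterior lobe sum 5.96, the melanotrope sum 278, the lactotrope sum 6552 and the somatotrope sum 14818. Prl at 6546 and Gh at 14807 made up nearly all of the lactotrope and somatotrope sums, and Pomc at 260 most of the melanotrope sum. Steps were checked on simulated data. Python 3.11.15, pandas 2.3.3 and numpy 2.4.6 were used.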

Additional observations from a re-analysis of the deposited data

Results flagged for a closer look

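The age difference (P7 minus adult, log2) had opposite directions in whole glands and in Tshbcre cells for 3 granins, and the difference between the contrasts was not tested. For Chga it was 0.34 in glands and -0.80 in Tshbcre cells, 1.14 apart, and with assembled transcripts the gland value turned to -0.59. For Scg2 it was 0.15 and -0.18, 0.33 apart, and the gland value turned to -0.61 with assembled transcripts, while the value in Tshbcre cells turned to 0.24 with an equal sum of FPKM. For Scg3 it was -0.30 and 0.69, a difference of -0.99, and the gland value turned to 0.06 with FPKM as deposited.

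Unnamed assembled transcripts at granin loci carried signal outside the annotated sums. In the adult whole gland they reached 113 scaled FPKM at Chga (1 transcript of 1793 nt) and 135 at Scg2 (2687 nt). At Vgf they reached 0.59 in the adult gland and 0.38 in the adult Tshbcre library. In these libraries 65.8% and 51.9% of the unnamed transcripts were 200 nt or more long, against 4.25% in the Lhbcre library. The share was 52.2% in the P7 whole glands, where no unnamed transcript of that length was assigned to a granin.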

How the results depend on the processing

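Of 77 counts of granins apart under alternatives, 66 stayed within 1.5 times the reported count. Dropping the minimum or requiring genes above 0 in both could not alter these counts, because every granin listed was above 1. With 2-fold in place of 4-fold, 5 granins were apart in adult Tshbcre cells, 2 in Ghcre cells, 5 in Lhbcre cells and 5 in P7 Tshbcre cells against their glands, 1 between the glands' ages, 1 between the Tshbcre ages and 2 between the Tshbcre and Lhbcre libraries. For Ghcre cells 1 granin was apart with an equal sum of FPKM (Chgb, higher) and 1 with assembled transcripts added (Chga, lower). For Lhbcre cells 0 were apart with assembled transcripts, and for P7 Tshbcre cells 1 (Chgb) with FPKM as deposited and 4 with equal sums.

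Of the single differences, 68 moved by more than their bounds and 328 did not. No minimum, a minimum of 10 and genes above 0 in both only choose which genes are compared. They cannot move a single difference, so part of the 328 was fixed in advance. Signs changed in 5 of 40 with FPKM as deposited, 4 of 40 with equal sums and 2 of 40 with assembled transcripts. No sign changed under the other settings, which include those that could not move a difference. The values that turned stand beside their results. Among all genes, 1106 were apart in Ghcre cells and 1975 with equal sums. A pseudocount of 0.1 gave 2099 to 3454 genes apart over the comparisons, a minimum of 10 gave 453 to 706, genes above 0 in both 162 to 456 and 2-fold 3043 to 4752, against 1034 to 1535 as reported. With the minimum of 10 fewer genes were compared, and the share apart was larger. Against their glands it was 520 of 3900 genes in adult Tshbcre, 536 of 2819 in Ghcre, 706 of 4051 in Lhbcre and 663 of 3889 in P7 Tshbcre cells. Beside these shares, 2 of 5, 0 of 4, 1 of 6 and 3 of 5 granins were apart.

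No paired analysis was possible because each group is 1 library and no result comes from a test. The bounds limit a level to about its counting error, and no value measures variation between animals.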
